A study of Mus musculus with 2 samples.

Results

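The nuclear genome of the mouse encodes most subunits of the respiratory chain, and 88 of the 40276 features counted in the 2 sections, under 87 symbols, are such genes. They were chosen by symbol: the Nduf genes of complex I, Sdha to Sdhd of complex II, the Uqcr genes and Cyc1 of complex III, the Cox4 to Cox8 genes of complex IV and the Atp5 genes of complex V. Ndufa4 and Ndufa4l2 were placed with complex IV, where the protein of Ndufa4 is now counted. By complex there were 37, 4, 9, 20 and 18 members. Atp5o is listed under 2 gene identifiers, and both entries are included.

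The tissues were a normal mouse heart and a normal mouse brain, each fixed in formalin, embedded in paraffin, cut at 5 µm and carried through spatial random-primed total RNA sequencing (spRandom-seq). In this assay RNA is copied in place with random primers and each molecule is assigned to a barcoded spot of the section, so that RNA without a poly(A) tail is also read. Both samples carry the same label for treatment, a reverse transcription primer lacking the second of the cell barcodes. The labels give no strain, sex or age, and there was 1 library per tissue, so no test between tissues was possible and no p-value is given.

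The respiratory chain passes electrons from NADH (complex I) and succinate (complex II) through ubiquinone to complex III, then through cytochrome c to complex IV, which reduces oxygen. Complexes I, III and IV pump protons across the inner mitochondrial membrane, and complex V, the ATP synthase, uses the returning protons to make ATP. Cardiac muscle is among the tissues richest in mitochondria, and in mammals several small subunits of complex IV have a heart-type copy made in heart and skeletal muscle and a liver-type copy made in most other tissues. Neurons also depend on oxidative phosphorylation.

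Barcodes with at least 500 counts and 200 features were taken as spots over tissue, which left 3726 spots and 44613867 counts in heart and 4080 spots and 37143546 counts in brain. The median spot held 9050 counts in heart and 5981 in brain. The 4992 barcodes are the same in both libraries, and 3342 of them passed in both. Levels are counts scaled to a common total for each section (CPM), and all intervals are exact 95% intervals that cover counting error only. The tissue labels were checked by markers: 8 cardiomyocyte genes summed to 25189 CPM in heart and 615 CPM in brain, while 5 neuronal genes summed to 133 CPM in heart and 3166 CPM in brain. Nuclear ribosomal RNA took 51.2% of heart counts and 32.9% of brain counts, which lowers the CPM of every other gene in heart. The median log2 ratio of heart over brain over all features that averaged 10 CPM or more was -0.55 on the CPM scale. It was -0.09 when scaled to counts outside nuclear ribosomal RNA, and 0.06 when mitochondrial and small structured RNA were also left out.

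The 300-base windows around the annotated starts of the heart-type genes Cox7a1 and Cox8b and of their liver-type partners Cox7a2, Cox8a and Cox6a1 are shown because these pairs gave the sharpest contrast between the sections. The windows run from 250 bases before to 50 after each start, on the strand of the gene, from RefSeq on GRCm38.p6. They lie at chr7:30183921-30184220 (Cox7a1, plus strand), chr7:140900397-140900696 (Cox8b, minus strand), chr9:79759804-79760103 (Cox7a2, minus strand), chr19:7217567-7217866 (Cox8a, minus strand) and chr5:115348909-115349208 (Cox6a1, minus strand). Capitals mark matches to the letters of 9 motifs, searched on both strands.
Cox7a1: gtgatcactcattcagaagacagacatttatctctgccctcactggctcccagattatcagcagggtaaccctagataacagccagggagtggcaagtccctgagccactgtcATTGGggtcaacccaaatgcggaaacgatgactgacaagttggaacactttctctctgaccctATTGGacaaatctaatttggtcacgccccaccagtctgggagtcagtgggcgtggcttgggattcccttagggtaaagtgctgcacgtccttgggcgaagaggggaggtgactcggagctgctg
Cox8b: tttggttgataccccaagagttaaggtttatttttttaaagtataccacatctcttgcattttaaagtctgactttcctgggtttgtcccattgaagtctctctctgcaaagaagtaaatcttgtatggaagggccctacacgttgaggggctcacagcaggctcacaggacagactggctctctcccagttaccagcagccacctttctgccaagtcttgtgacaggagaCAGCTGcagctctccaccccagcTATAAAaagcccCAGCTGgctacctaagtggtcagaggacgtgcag
Cox7a2: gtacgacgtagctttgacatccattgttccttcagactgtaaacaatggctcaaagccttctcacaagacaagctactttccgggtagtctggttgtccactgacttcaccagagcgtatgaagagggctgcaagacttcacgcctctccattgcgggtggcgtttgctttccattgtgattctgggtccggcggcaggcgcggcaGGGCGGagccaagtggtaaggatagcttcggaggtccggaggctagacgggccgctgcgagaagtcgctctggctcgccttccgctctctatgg
Cox8a: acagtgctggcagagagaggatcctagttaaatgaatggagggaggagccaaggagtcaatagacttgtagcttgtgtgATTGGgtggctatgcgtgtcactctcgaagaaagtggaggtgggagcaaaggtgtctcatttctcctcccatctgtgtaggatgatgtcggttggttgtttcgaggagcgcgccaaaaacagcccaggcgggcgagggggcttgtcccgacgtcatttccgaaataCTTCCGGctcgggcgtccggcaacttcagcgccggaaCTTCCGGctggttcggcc
Cox6a1: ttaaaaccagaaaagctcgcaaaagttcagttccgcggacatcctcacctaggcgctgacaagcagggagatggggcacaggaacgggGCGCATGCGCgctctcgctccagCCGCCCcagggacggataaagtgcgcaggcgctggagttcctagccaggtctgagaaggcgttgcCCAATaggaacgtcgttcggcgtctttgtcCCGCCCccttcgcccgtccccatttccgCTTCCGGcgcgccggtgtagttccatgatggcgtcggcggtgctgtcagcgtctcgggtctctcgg
Cox7a1 holds a pair of CCAAT boxes (CCAAT), at 137 and 74 bases before the start. Cox8b holds an E box (CAGCTG) 19 bases before the start, a second E box and a TATA box (TATAAA) just after the annotated start. Cox7a2 holds a GC box (GGGCGG), Cox8a a CCAAT box and a pair of ETS cores (CCGGAAG), and Cox6a1 an NRF1 core (GCATGCGC) matched on both strands at overlapping positions, a pair of GC boxes, an ETS core and a CCAAT box. The windows of the heart-type genes held 7 CpG dinucleotides (Cox7a1) and 2 (Cox8b), against 20 (Cox7a2), 19 (Cox8a) and 32 (Cox6a1) for the liver-type genes. Cox6a2 is named only.

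Windows were matched for 69 of the 87 symbols, giving 74 windows, and each motif was set against all 32851 windows of the same table. The NRF1 core was in 10 of the 74 members' windows (13.5%) and 2.71% of all windows, and the ETS core in 17 (23.0%) and 8.86%. The YY1 core (AAGATGGCG) was in 7 members' windows (9.46%) and 1.40% of all windows. The ERR site (TCAAGGTCA) was in only 2 members' windows (2.70%) and 0.423% of all windows. NRF1, ETS-family GABP, YY1 and the estrogen-related receptors are known regulators of mitochondrial genes. The GC box was in 39.2% of members' and 35.7% of all windows, the CCAAT box in 41.9% of members' and 37.4% of all windows, and the TATA box in 12.2% of members' and 13.6% of all windows. The E box was in 8.11% of members' and 16.3% of all windows. The MEF2 core (TATTTTTA) was in 0 of the members' windows and in 2.72% of all windows. The median window held 19 CpG dinucleotides among members and 7 among all windows. The NRF1, ETS and YY1 cores each hold a CpG, the windows were not matched for it, and its part in these shares was not tested. These are matches of letters and not shown to be bound.

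Most subunits made up more of the heart counts than of the brain counts. Of the 88 members, 75 averaged 10 CPM or more over the sections. A member low in brain could pass through heart, as Cox6a2 did with 100.2 CPM in heart and 0.242 CPM in brain. The features of the background passed by the same rule. Of these, 74 were higher in heart, beside a background of 30.3% of all features, and 1 was higher in brain, beside 69.7%. On the scalings outside ribosomal RNA and outside all structured RNA, 79 of 81 were higher in heart, against 51.5% and 58.6% of all features. At least 2-fold higher in heart were 65 members, beside a background of 10.6% of all features. At least 4-fold higher were 22 members, 29.3% of the 75, beside a background of 4.45%. On the other scalings 45 of 81 members were, beside 6.7%, and 57 of 81, beside 7.76%. In brain 0 of these 75 were at least 2-fold higher, beside a background of 32.9%. Cox6a1 and Cox8a, which averaged less than 10 CPM, were higher in brain and are described with their isoforms. At 4-fold in brain there were again 0 on each scaling, beside 13.4%, 8.2% and 6.92%, and in the deepest spots beside 13.5%. The median log2 ratio of the 75 was 1.65, with quartiles of 1.32 and 2.10, against -0.55 for all features, and 2.12 and 2.26 on the other scalings. Spots hold mixed cells, so more cells of a type and more RNA per cell cannot be told apart.

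All 88 members together made up 308977 counts (0.693%) in heart and 130870 counts (0.352%) in brain. A single gene, Ndufs7, which encodes an iron-sulfur subunit of complex I, supplied 103638 of these counts in heart and 77222 in brain. Without it the 87 other members summed to 4603 CPM in heart and 1444 CPM in brain, a ratio of 3.19 (3.16 to 3.22). Sums are therefore given with and without Ndufs7.

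**Figure D1:**
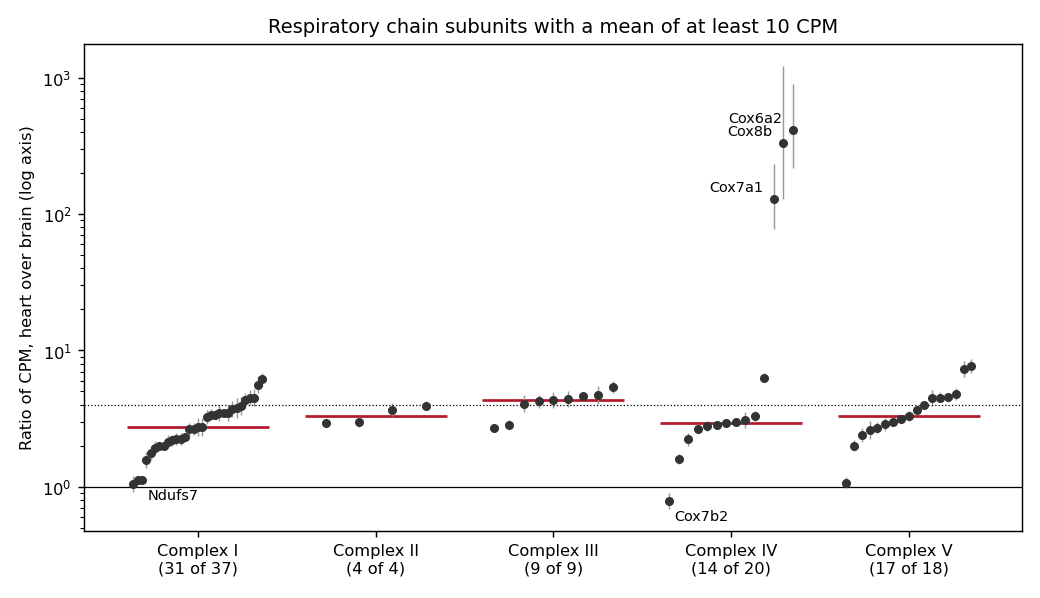
Ratio of CPM in heart over CPM in brain (log axis) for the 75 members that averaged 10 CPM or more, by complex, with exact 95% intervals for counting error. The red lines are the medians of each complex, the solid line marks equal levels and the dotted line 4-fold. The medians lie between 2.74 (complex I) and 4.30 (complex III), Cox7b2 is the point below 1, and the heart-type isoforms Cox6a2, Cox8b and Cox7a1 stand above 100-fold.

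Complex I oxidises NADH with the help of a flavin and iron-sulfur clusters. Its 37 members summed to 3530 CPM in heart and 2558 CPM in brain, a ratio of 1.38. Without Ndufs7 the sums were 1207 CPM in heart and 479 CPM in brain, a ratio of 2.52 (2.48 to 2.56). The 31 members past 10 CPM had a median ratio of 2.74, 24 were at least 2-fold higher in heart and 5 at least 4-fold. The largest ratio was that of Ndufb10, an accessory subunit of the membrane arm, at 66.2 CPM in heart and 10.8 CPM in brain (6.13-fold, 5.52 to 6.82). Ndufs1, the largest iron-sulfur subunit, had 106 CPM in heart and 46.2 CPM in brain (2.30-fold, 2.17 to 2.43).

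The subunits with ratios close to 1 were Ndufs7, Ndufs4 and Ndufb2. Ndufs7 stood at 2323 CPM in heart and 2079 CPM in brain, more than any other member, and per kb of exon at 1352 CPM in heart and 1210 CPM in brain, where the medians of the complex were 23.1 CPM per kb in heart and 8.41 CPM per kb in brain. Its ratio of 1.12 (1.11 to 1.13) turned to 0.868 when every spot weighed the same. Ndufs4, an accessory subunit whose loss in mice causes an encephalopathy, had 66.2 CPM in heart and 59.3 CPM in brain (1.12-fold, 1.06 to 1.18). Its gene spans 100 kb, and a density of counts measured over 1551 olfactory and vomeronasal receptor genes would give a span of that length 8.64 CPM in heart and 6.68 CPM in brain. Ndufb2 had 10.3 CPM in heart and 9.80 CPM in brain, and its interval of 0.911 to 1.21 includes 1.

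Several complex I members carried almost no counts. Ndufa13 is listed at 0 in both sections, and Ndufb8 at 3 counts in heart and 1 in brain. Both overlap another annotated gene on the same strand, Yjefn3 and Gm20538, and the part of that overlap in the counts was not tested. Ndufb11b had 4 counts in each section. Ndufb4, Ndufs5 and Ndufa11 had means under 10 CPM, with ratios of 1.34, 1.57 and 2.72. Ndufa11, at a mean of 9.97 CPM, and Cox6a1, at 9.80 CPM, were the first below the minimum, while Ndufb2, at 10.03 CPM, and Cox7b2, at 10.1 CPM, were the last above it.

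Complex II, succinate dehydrogenase, is the member of the chain that also belongs to the tricarboxylic acid cycle and is encoded wholly in the nucleus. Its 4 genes summed to 358 CPM in heart and 111 CPM in brain, a ratio of 3.22 (3.11 to 3.33). They lay close together: Sdha, the flavoprotein, had 184 CPM in heart and 62.1 CPM in brain (2.96-fold, 2.82 to 3.10). Sdhb, the iron-sulfur subunit, had 83.8 CPM in heart and 21.3 CPM in brain (3.93-fold, 3.64 to 4.25), and Sdhc, a membrane anchor, 50.2 CPM in heart and 16.8 CPM in brain (2.99-fold, 2.74 to 3.27). All were between 2-fold and 4-fold.

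Complex III, the cytochrome bc1 complex, had the highest median ratio of the complexes. Its 9 genes summed to 470 CPM in heart and 125 CPM in brain, a ratio of 3.77 (3.65 to 3.89), with a median of 4.30 and 7 members at least 4-fold higher in heart. The core protein genes differed from each other. Uqcrc1 had 98.2 CPM in heart and 21.2 CPM in brain (4.62-fold, 4.29 to 4.99), and Uqcrc2 95.2 CPM in heart and 35.6 CPM in brain (2.67-fold, 2.51 to 2.85), so their intervals do not overlap. Uqcrh, the hinge protein, had 56.0 CPM in heart and 19.6 CPM in brain (2.86-fold, 2.63 to 3.11). Uqcrfs1, the Rieske iron-sulfur protein, was the highest at 5.38-fold (4.85 to 5.99).

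Complex V combines a catalytic head, a rotor with a ring of c subunits, and a stalk. Its 18 entries summed to 1671 CPM in heart and 468 CPM in brain, a ratio of 3.57 (3.51 to 3.63). The genes of the head, Atp5a1 and Atp5b, carried the most CPM of all members other than Ndufs7 in both sections, without regard to length. Atp5a1, the alpha subunit, had 403 CPM in heart and 101 CPM in brain (3.99-fold, 3.85 to 4.14). Atp5b, the catalytic beta subunit, had 397 CPM in heart and 109 CPM in brain (3.65-fold, 3.53 to 3.78), and Atp5c1, the gamma subunit, 139 CPM in heart and 44.2 CPM in brain (3.15-fold, 2.98 to 3.33). Outside complex IV the largest ratios of all members were in the rotor: Atp5g1, which encodes subunit c, had 62.7 CPM in heart and 8.21 CPM in brain (7.63-fold, 6.78 to 8.62), and Atp5e, the epsilon subunit, 46.1 CPM in heart and 6.30 CPM in brain (7.32-fold, 6.39 to 8.41).

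The smallest ratio in complex V was that of an Atp5o entry whose annotated span is 243 kb, with 22.1 CPM in heart and 20.8 CPM in brain. The receptor-gene density gives a span of that length 20.9 CPM in heart and 16.1 CPM in brain. The other Atp5o entry, 6.47 kb long, had 12.7 CPM in heart and 3.45 CPM in brain (3.68-fold, 3.03 to 4.50). The entries overlap on the same strand, so counts of Atp5o, the stalk subunit OSCP, may be divided between them.

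Complex IV, cytochrome c oxidase, held both the largest and the smallest ratios. Its 20 members summed to 896 CPM in heart and 261 CPM in brain, a ratio of 3.43 (3.36 to 3.51), and to 708 CPM in heart and 260 CPM in brain without the heart-type genes Cox6a2, Cox7a1 and Cox8b, a ratio of 2.72 (2.66 to 2.78). The widely used subunits were near the median of all members. Cox4i1 had 104 CPM in heart and 36.5 CPM in brain (2.86-fold), Cox6c 95.6 CPM in heart and 32.1 CPM in brain (2.98-fold), and Cox7b 88.2 CPM in heart and 30.1 CPM in brain (2.93-fold). Cox6b1 had a larger ratio, with 5623 counts (126 CPM) in heart and 743 counts in brain (6.30-fold, 5.84 to 6.81), and its level in heart depended on depth as given with the depth of the spots.

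The heart-type isoforms were the members most restricted to one section. Cox6a2 had 4470 counts (100.2 CPM) in heart and 9 counts (0.242 CPM) in brain, a ratio of 414 (218 to 905). Cox8b had 1599 counts (35.8 CPM) in heart and 4 counts (0.108 CPM) in brain, a ratio of 333 (130 to 1223). Cox7a1 had 2337 counts (52.4 CPM) in heart and 15 counts (0.404 CPM) in brain, a ratio of 130 (78.5 to 232). The receptor-gene density over the spans of these short genes would give 0.0634 CPM (Cox6a2), 0.0999 CPM (Cox8b) and 0.129 CPM (Cox7a1) in brain. Cox6a2 was seen in 55.3% of heart spots and 0.221% of brain spots.

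The liver-type partners did not mirror one another. Cox6a1 had 6.32 CPM in heart and 13.3 CPM in brain (0.476-fold, 0.410 to 0.552), and Cox8a 4.82 CPM in heart and 10.4 CPM in brain (0.464-fold, 0.391 to 0.549), lower in heart on every scaling tried, where the ratios reached 0.727 and 0.708. Cox7a2 was higher in heart, at 25.2 CPM in heart and 11.3 CPM in brain (2.22-fold, 1.99 to 2.49). Levels per kb of exon use the length of all annotated exons of a gene, which need not be the length of the RNA made. On that measure Cox6a2 made up 94.2% of the COX6A pair in heart and 1.85% in brain. Cox8b made up 92.2% of the COX8 family in heart and 1.74% in brain. Cox7a1 made up 78.6% of the COX7A pair in heart and 5.91% in brain.

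As whole families, per kb of exon, COX6A, COX7A and COX8 were 8.12-fold, 9.76-fold and 6.28-fold higher in heart than in brain, and 7.88-fold, 6.61-fold and 3.88-fold with no length correction. Families without a heart-type copy lay lower per kb of exon, at 6.24-fold for COX6B, 4.39-fold for ATP5G and 2.81-fold for COX4. NDUFA4 was at 2.79-fold and COX7B at 1.95-fold. With no length correction COX6B, at 6.21-fold, and ATP5G, at 4.96-fold, stood above COX8. COX6B was almost wholly Cox6b1, whose ratio was 3.83 in the deepest class of spots. Cox7b2, with 0.542 kb of exon in a span of 105 kb, made up 18.4% of COX7B per kb of exon in heart and 45.7% in brain. Cox7b alone was 2.93-fold. COX4 consisted almost wholly of Cox4i1: Cox4i2, known from lung and vessels, had 87 counts in heart and 37 in brain. Likewise Ndufa4l2, a hypoxia-responsive paralogue of Ndufa4, had 60 counts in heart and 15 in brain, and Ndufa4 itself 55.3 CPM in heart and 19.9 CPM in brain (2.78-fold). The testis isoforms Cox6b2 (17 counts in heart, 13 in brain) and Cox8c (14 in heart, 2 in brain) were scarce in both sections.

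Cox7b2, a testis isoform of COX7B, was the one member averaging 10 CPM or more that was higher in brain, with 396 counts (8.88 CPM) in heart and 420 counts (11.3 CPM) in brain, a ratio of 0.785 (0.683 to 0.903), which turned to 1.08 outside ribosomal RNA and 1.20 outside all structured RNA. Its gene spans 105 kb, for which the receptor-gene density gives 9.06 CPM in heart and 7.01 CPM in brain. All counts of Cox7b2 in heart are thus within the amount that density gives.

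The c subunit of the ATP synthase is made from 3 genes that give the same mature protein. In heart the family stood at 58.5 CPM per kb of exon and in brain at 13.3 CPM per kb, a ratio of 4.39. Atp5g3 led in both, with 62.3% of the family per kb of exon in heart and 60.6% in brain. Atp5g1 made up 21.8% in heart and 12.5% in brain, and Atp5g2 15.9% in heart and 26.9% in brain. The order of these minor members thus differed between the sections per kb of exon only. With no length correction Atp5g1 was above Atp5g2 in both, at 39.7% against 9.86% in heart and 25.8% against 18.9% in brain. Per kb of gene span it was also above, at 23.9% against 4.26% in heart and 15.1% against 7.95% in brain. In CPM, Atp5g3 had 79.6 in heart and 17.6 in brain (4.51-fold), and Atp5g2 had 694 counts in heart and 223 counts in brain (2.59-fold).

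**Figure D2:**
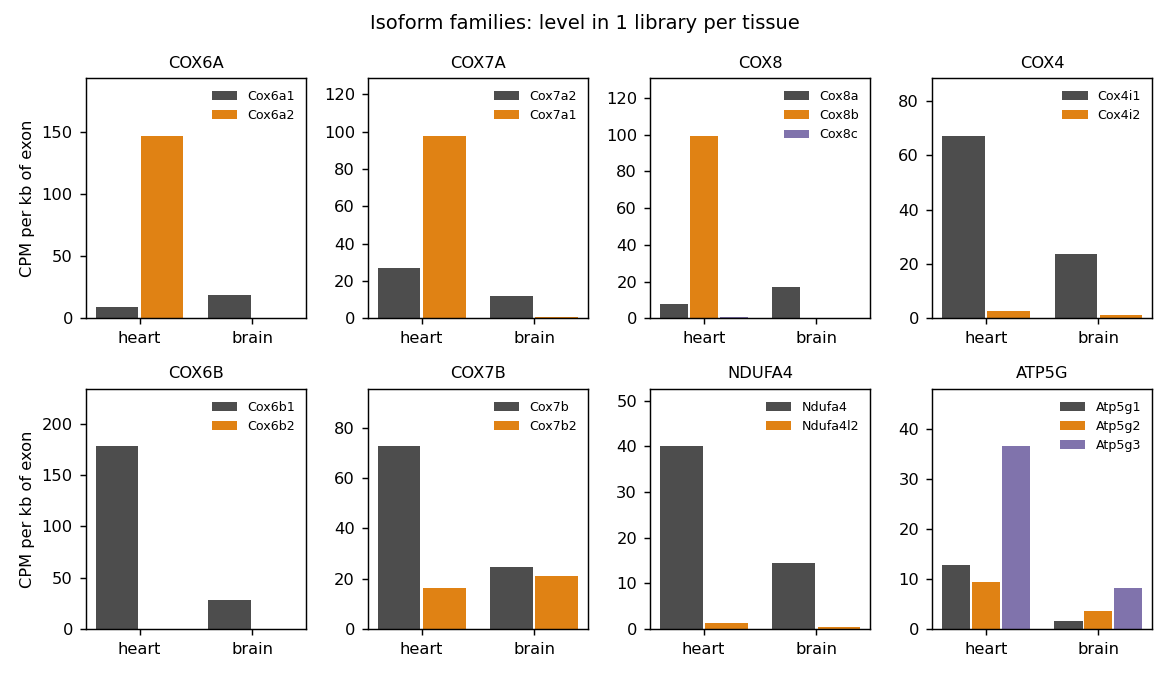
Level of each isoform in CPM per kb of exon, in 1 heart and 1 brain library, for 8 families of subunits (one panel each, with its own axis). Cox6a2, Cox7a1 and Cox8b are the tall bars in heart, at 147, 97.9 and 99.6 CPM per kb, and are near 0 in brain, where Cox6a1, Cox7a2 and Cox8a take their place.

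Gene length moved with the ratio. Across the 75 members past 10 CPM, Spearman's rho of the log2 ratio with the length of the gene was -0.54, and -0.50 over the 71 members left without Ndufs7 and the heart-type genes, a description across genes of the same 2 libraries. The 63 members shorter than 20 kb had a median ratio of 3.47, and the 12 longer ones 2.10. With the receptor-gene density subtracted these medians were 3.57 and 2.17. The levels of the same 71 members per kb of exon ranked alike in the sections, with a rho of 0.80.

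Genes that work with the subunits were counted from lists of the same pathways. The 13 mitochondrially encoded subunits were all higher in heart (median log2 ratio 1.24), led by mt-Co1 at 3418 CPM in heart and 1220 CPM in brain (2.80-fold). All 17 genes of the tricarboxylic acid cycle were higher in heart, with a median of 1.499 and 14 at least 2-fold, among them Ogdh, of the oxoglutarate dehydrogenase complex, at 355 CPM in heart and 85.2 CPM in brain (4.16-fold). The subunits' median of 1.65 lies beside these, and beside 0.46 for cytosolic ribosomal protein genes, of which 45 of 56 past 10 CPM were higher in heart. Of all features past 10 CPM, 30.3% were higher in heart and 10.6% at least 2-fold, with a median of -0.55.

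Factors that assemble the complexes summed to nearly the same CPM in both sections. Of 46 assembly factors, 14 passed 10 CPM, 8 of them higher in heart and 6 in brain, beside 30.3% and 69.7% of all features. Their median log2 ratio was 0.34, against -0.55 for all features. Their summed level was 520 CPM in heart and 530 CPM in brain, a ratio of 0.982, or 1.498 outside all structured RNA. Ttc19, which acts on complex III, had 32.1 CPM in heart and 103 CPM in brain (0.311-fold), while Cox10, of heme a synthesis, had 45.6 CPM in heart and 31.6 CPM in brain (1.44-fold) and Uqcc1, of complex III assembly, 42.0 CPM in heart and 24.9 CPM in brain (1.68-fold). Ttc19 stayed lower in heart, at 0.475-fold, on the scaling outside all structured RNA. Atpif1, the inhibitor of the ATP synthase, had 13.6 CPM in heart and 16.3 CPM in brain (0.838-fold), which turned to 1.28 on that scaling.

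Among 15 electron carriers and entry points, 10 passed 10 CPM and 7 of these were higher in heart, beside 30.3% of all features. Etfa, of the electron transfer flavoprotein, had 118 CPM in heart and 23.9 CPM in brain (4.93-fold), and Etfdh, which passes electrons from fatty acid oxidation to ubiquinone, 4239 counts in heart and 388 counts in brain (9.10-fold). Pdss2, of ubiquinone synthesis, had 46.6 CPM in heart and 68.9 CPM in brain (0.676-fold on the CPM scale, 1.03 outside all structured RNA). Of 16 regulators, 13 passed and 9 were higher in heart (median log2 ratio 0.72), beside the same 30.3%. Esrrg, an estrogen-related receptor, had 261 CPM in heart and 136 CPM in brain (1.92-fold), and Ppargc1a, a coactivator of mitochondrial genes, 109 CPM in heart and 60.5 CPM in brain (1.81-fold).

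Within each section the depth of the spots differed, and most members changed less than 2-fold between the shallowest and the deepest spots. Spots were divided into 4 equal classes by total counts. From the shallowest to the deepest class the 87 members without Ndufs7 summed to 5142, 3948, 4398 and 4822 CPM in heart, and to 1288, 1451, 1486 and 1439 CPM in brain. Ndufs7 did follow depth, with 3681, 3366, 2463 and 1931 CPM in heart and 5552, 3697, 2302 and 1456 CPM in brain. Over these 4 classes its level fell with depth in both sections. Barcodes below the threshold for a spot had lower levels than the shallowest class, at 2312 CPM in heart and 3434 CPM in brain.

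Cox6b1 followed depth in heart but not in brain. It had 414, 220, 148 and 77.3 CPM from shallow to deep in heart, and 19.9, 22.0, 18.5 and 20.2 CPM in brain. In the deepest class its ratio of heart over brain was 3.83, against 6.30 over all spots. At least 2-fold higher in the shallowest than in the deepest class were 7 of 75 members in heart and 1 of 75 in brain (Ndufs7). The 7 in heart were Cox6b1, Ndufb6, Ndufa2, Ndufv3, Ndufb7, Ndufc2 and Ndufa3. The same share over all features was not taken, so these counts are not read as particular to the members. In the deepest class alone, 23 members were at least 4-fold higher in heart, beside a background of 5.11%. Smaller changes in heart ran both ways, with intervals that exclude 1. Shallowest over deepest was 1.76 for Cox6a2 (1.53 to 2.01), 1.93 for Cox8b (1.54 to 2.38) and 1.29 for Cox7a1 (1.03 to 1.59). It was 0.771 for Atp5a1 (0.703 to 0.844) and 0.624 for Atp5c1 (0.524 to 0.739). The part of depth in the levels of Ndufs7, Cox6b1 and these members was not tested.

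**Figure D3:**
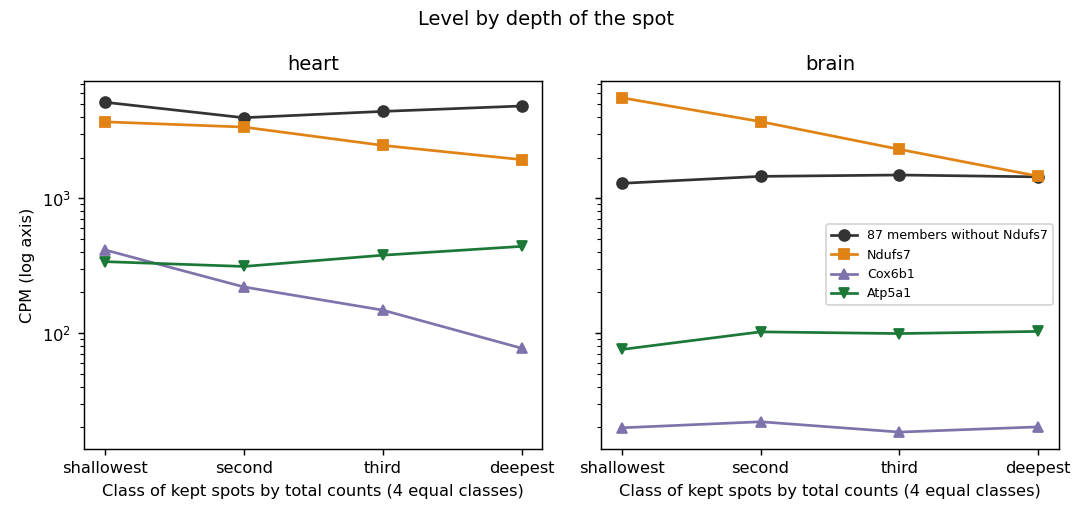
Level in CPM (log axis) of the 87 members without Ndufs7, of Ndufs7, of Cox6b1 and of Atp5a1 in 4 classes of spots by total counts, in heart and in brain. The sum without Ndufs7 stays between 3948 and 5142 CPM in heart and between 1288 and 1486 CPM in brain, while Ndufs7 is lower in deeper spots of both sections and Cox6b1 in those of heart.

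To compare spots at the same depth, each was thinned at random to 2800 counts, which left out 787 heart spots and 1020 brain spots that were shallower. At that depth a heart spot held 12.2 ± 5.13 counts of the members without Ndufs7 (SD over 2939 spots of 1 section) and a brain spot 4.14 ± 2.18 (3060 spots). Before thinning the medians were 4678 CPM in heart and 1381 CPM in brain. The variance was 2.16 times the mean in heart and 1.15 times in brain, where a value of 1 is what separate counts alone give. Both sections were above 1, heart by more than brain. A count of a heart-type isoform was in 41.4% of thinned heart spots and 0.229% of thinned brain spots, and before thinning in 69.1% of heart spots and 0.637% of brain spots.

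Across thinned heart spots the level of the members without Ndufs7 had a Spearman's rho of 0.56 with the sum of cardiomyocyte markers. It was 0.39 with the tricarboxylic acid cycle genes, 0.21 with cytosolic ribosomal protein genes, 0.20 with mitochondrially encoded subunits and -0.30 with erythrocyte genes. In brain rho was 0.03 with neuron markers, 0.11 with the tricarboxylic acid cycle genes and -0.12 with astrocyte markers. These are descriptions over spots of a section that share 1 library. Between complexes rho lay between 0.10 (II with IV) and 0.25 (I with V) in heart, where each spot holds few counts of each complex. In brain, with fewer counts still, it lay between -0.0072 (II with IV) and 0.0363 (IV with V).

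The heart section was divided into 8 regions of spots by clustering on genes other than the members, the pathway and marker lists, mitochondrial genes and ribosomal genes. Regions are named by number and leading genes. Without Ndufs7 the members summed to 5354 CPM in region 2 (Lrtm1, Fgf13; 984 spots), 4605 CPM in region 1 (Tmem50a; 1018 spots), 4388 CPM in region 4 (Myh11, Svep1) and 4289 CPM in region 7 (H19, Npr3). The highest value, 6409 CPM, was in region 3 (Dnah7c; 599 spots), whose median spot held 857 counts. The lowest were 1769 CPM in region 5 (Prg4, Comp, Scd1) and 1713 CPM in region 6, led by the globin genes Hba-a1 and Hbb-bt. Cardiomyocyte markers summed to 7819 CPM in region 5 and 4315 CPM in region 6, against 20943 to 30266 CPM in the other 6 regions, and were lowest where the members were lowest.

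Region 8 (139 spots), led by the atrial genes Myl7, Sln and Myl4, had 3359 CPM of the members without Ndufs7, against 5354 CPM in region 2. Region 2 was taken for comparison because it held the most counts, and only region 3 had a higher level of the members. Regions 1, 4 and 7, at 4605, 4388 and 4289 CPM, were closer to region 8, and single members were not compared with them. Its 4 atrial markers summed to 1560 CPM, against 19.0 CPM in region 2, and its 3 ventricular markers to 17.9 CPM, against 833 CPM. Cardiomyocyte markers were at 23657 CPM in region 8 and 30266 CPM in region 2, and the median spot held 20783 counts in region 8 and 19703 in region 2. Fibroblast markers were at 548 CPM in region 8 and 166 CPM in region 2, and their part in the lower levels of the members was not tested. Of the 76 members at 10 CPM or more in the section, 71 were lower in region 8, beside 31.9% of all 7440 features at that level. Their median ratio was 0.626, against 1.14 over all those features. The interval lay below 1 for 66 members, beside 11.5% of all features, and above 1 for 1 member, the long Atp5o entry. Both regions come from the same section, so this has no replicate.

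The lowest ratios came from several complexes. Cox6b1 had 38.4 CPM in region 8 and 101 CPM in region 2 (0.381-fold, 0.310 to 0.465), and Cox7a1 67 counts in region 8 and 1236 counts in region 2 (0.429-fold, 0.330 to 0.548). In complex I, Ndufa1 was at 0.420-fold (0.257 to 0.652) and Ndufs6 at 0.434-fold (0.317 to 0.583). Cyc1, cytochrome c1, had 25.4 CPM in region 8 and 56.9 CPM in region 2 (0.446-fold, 0.344 to 0.569), and Uqcrc1 49.6 CPM in region 8 and 111 CPM in region 2 (0.448-fold, 0.373 to 0.533). Cox6a2 was at 0.469-fold (0.392 to 0.556) and Cox8b at 0.495-fold (0.368 to 0.654). Their liver-type partners stood at 1.06-fold for Cox6a1 (0.637 to 1.67), 1.08-fold for Cox8a (0.584 to 1.86) and 0.588-fold for Cox7a2 (0.428 to 0.791). Atp5a1, at 0.586-fold (0.544 to 0.631), and Sdha, at 0.622-fold (0.558 to 0.692), were near the median.

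The isoform mix differed with these levels. The heart-type gene made up 86.8% of COX6A counts in region 8 (80.5 to 91.6%) and 93.7% in region 2 (92.7 to 94.6%), 77.9% of COX8 counts in region 8 (66.2 to 87.1%) and 88.5% in region 2 (86.3 to 90.4%), and 58.8% of COX7A counts in region 8 (49.2 to 67.9%) and 66.2% in region 2 (64.0 to 68.3%). The intervals overlap for COX7A and, narrowly, for COX8. Region 5 had the lowest shares, at 80.9% of 94 COX6A counts, 42.2% of 45 COX7A counts and 56% of 25 COX8 counts, beside fibroblast markers at 1119 CPM, where the other regions had 151 to 548 CPM. Region 5 also had atrial markers at 328 CPM, below the 1560 CPM of region 8 but above the 19.0 to 66.3 CPM of the other regions. Its ventricular markers were at 79.3 CPM. The part of atrial tissue and of other cell types in these shares was not tested.

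**Figure D4:**
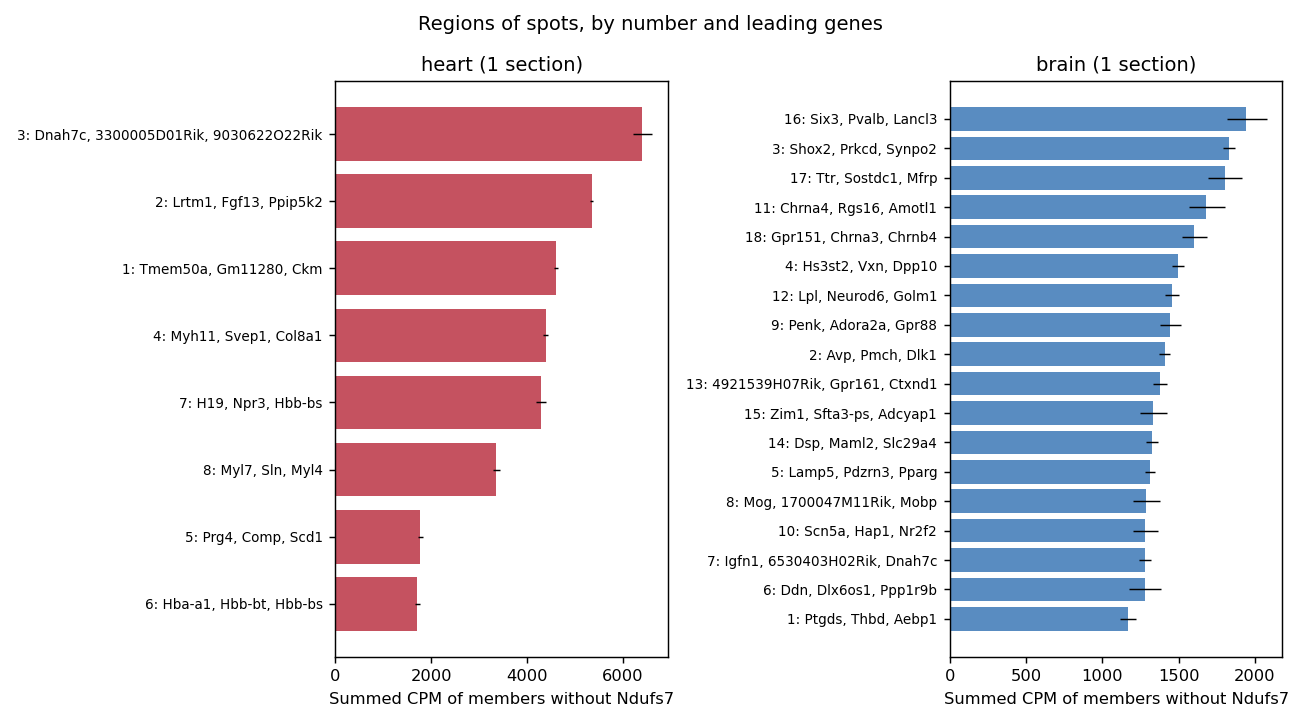
Summed CPM of the 87 members without Ndufs7 in regions of spots of the heart section and of the brain section, with exact 95% intervals for counting error, each region labelled by number and leading genes. In heart the regions run between 1713 and 6409 CPM, and in brain between 1167 and 1943 CPM, so that the lowest heart region lies within the range of the brain regions.

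In the brain section 18 regions were found, 15 of them with at least 50 spots. Over these 15 the members without Ndufs7 lay between 1167 CPM in region 1 (Ptgds, Thbd; median 1458 counts per spot) and 1828 CPM in region 3 (Shox2, Prkcd, Synpo2; 560 spots), and the highest over the lowest was 3.74-fold among heart regions and 1.57-fold among these. With fewer, larger regions, at a clustering resolution of 0.3, these folds were 2.09 in heart and 1.55 in brain. Region 3, with 4872 CPM, and region 11 (Chrna4, Rgs16), with 3969 CPM, had the highest sums of 6 thalamic markers, against at most 1387 CPM elsewhere. The members summed to 1682 CPM in region 11. Of the small regions, region 16 (Six3, Pvalb; 48 spots) had 1943 CPM and region 17 (Ttr, Sostdc1; 32 spots), with choroid plexus markers at 17850 CPM, 1803 CPM.

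Of the 51 members at 10 CPM or more in the section, 47 stood higher in region 3 than in the other spots, beside 39.4% of all 8436 features at that level. Their median ratio was 1.24, against 0.919 over all those features. The interval lay above 1 for 25 members, beside 21.7% of all features, and below 1 for 1 member, the long Atp5o entry. Cox7c, a small subunit of complex IV, was 1.89-fold higher (1.59 to 2.22), Ndufa10, an accessory subunit of complex I, 1.81-fold (1.59 to 2.06), Cox7b 1.76-fold (1.52 to 2.04) and Atp5b 1.68-fold (1.56 to 1.82). Cox7b2 was 2.69-fold higher (2.16 to 3.34), at 24.9 CPM. Atp5a1 was 1.34-fold higher (1.23 to 1.46). Ndufs7 stood at 2073 CPM there and 2079 CPM over the section.

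Ndufs7 ranged far more over the brain regions, between 920 CPM in region 13 and 8996 CPM in region 8 (Mog, Mobp; 209 spots, median 2817 counts). Region 8 had oligodendrocyte markers at 7529 CPM, and its members without Ndufs7 were at 1284 CPM, in the lower part of the range. Region 13, by contrast, held deep spots with a median of 37718 counts. The part of depth and of the oligodendrocyte genes in the level of Ndufs7 was not tested.

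The heart-type isoforms had few counts in the brain regions, and the highest shares rest on very few. Cox7a1 had 2 of 11 COX7A counts in region 10 (18.2%, 2.28 to 51.8%) and 3 of 27 in region 14 (11.1%, 2.35 to 29.2%), and Cox8b had 2 of 12 COX8 counts in region 17 (16.7%, 2.09 to 48.4%). Cox6a2 had 4 of 98 COX6A counts in region 3, a share of 4.08% (1.12 to 10.1%). In region 16, whose leading genes include Pvalb, the marker of interneurons in which Cox6a2 is known in mouse, it had 0 of 6, which by the exact binomial interval allows a share of up to 45.9%.

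Sequence similarity limits how sharply single members can be read. Of the 88 members, 40 share at least 100 bases at 95% identity or more with the transcript of another annotated gene. Among them are Atp5l with 96 such genes, Atp5md with 42, Ndufc1 with 7 and Cox6c with 5. Some of the matched genes overlap the member at its own place in the genome, as Emc8 does Cox4i1 and Pdzd9 does Uqcrc2. These were not separated from matches elsewhere. How the counting divided such reads is not given in the sources used here, and these members' counts are uncertain. Cox6a2, Cox7a1, Cox8b, Cox6a1, Cox7a2, Cox8a, Ndufs7, Atp5a1 and Atp5b had no such match among annotated transcripts. Shorter matches and sequence outside annotated transcripts were not searched, so this does not show that their counts are free of other reads. The source of the high counts of Ndufs7 was not tested.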

How the data were processed

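Total RNA of 1 heart and 1 brain section was read by the authors with spRandom-seq. STARsolo made the counts on build mm39, per the submitters' processing notes, which name no version. The deposited values are counts of whole numbers, 44768698 in heart and 37300503 in brain, by feature and barcode. Whether molecular tags were merged, introns counted or strand used was not stated in those notes or the labels, so intervals take each count as separate and cover counting error only.

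Counts of spots with at least 500 counts and 200 features were summed per section and scaled to CPM. Of 40276 features, 35500 and all 88 members were found in GENCODE mouse release 21 (GRCm38), used for exon length, span and overlaps only, since it is older than the files' build. Values got exact Poisson intervals, shares exact binomial (Clopper-Pearson) intervals and ratios exact conditional binomial intervals, all at 95%. A member was called at 4-fold with a mean of at least 10 CPM. Regions came from Leiden clustering (leidenalg 0.10.2, 2000 variable genes, 20 principal components, 15 neighbours, resolution 0.6, seed 1), with members, listed, mitochondrial and ribosomal genes left out. Doublets were not called, since spots can hold several cells. Spot positions were not used here. Scripts ran in Python 3.11.15 with scipy 1.17.1 and were tested on simulated data.

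The members and lists were chosen with earlier results of these data known. Genes named are the 3 highest of each complex and list, all isoform families, and the 5 largest and 5 smallest ratios. Ndufb10, Uqcrfs1, members at or near 0 or near the minimum level, those that followed depth and those named by region were chosen after their values were seen. Alternatives changed the scaling, spot threshold, spot weighting, background, level, fold, length correction, clustering and thinning. The deepest class of spots and the sums without Ndufs7 or without the heart-type genes were added after seeing the data.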

Additional observations from a re-analysis of the deposited data

Results flagged for a closer look

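Member counts also appeared outside the spots used above. The 1266 heart barcodes below the threshold of 500 counts and 200 features held 1080 member counts, and the 912 brain barcodes below it held 752. Scaled to the counts of those barcodes, members without Ndufs7 were at 4663 CPM in heart and 1357 CPM in brain, beside 4603 CPM and 1444 CPM over the spots of heart and of brain. No other value met a rule for a closer look, since with 1 library per tissue no spread between replicates exists.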

How the results depend on the processing

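No paired analysis was possible because each tissue has 1 library. Outside nuclear ribosomal RNA, 45 members were at least 4-fold higher in heart, outside all structured RNA 57, and at a 2-fold limit 65, against 22; the other settings gave 21 to 25. On these 2 scalings the ratios of heart over brain were 1.90 and 2.11 for complex I, 4.43 and 4.91 for II, 5.18 and 5.74 for III, 4.73 and 5.24 for IV and 4.92 and 5.45 for V. In the deepest class of spots they were 1.65, 3.58, 3.90, 3.52 and 3.78. With equal spots, I was 1.08, II 3.07 and IV 3.69, and with background subtracted IV was 3.55 and V 3.70. Complex I was 2.52 without Ndufs7, and IV 2.72 without the heart-type genes. The median log2 ratio of members lay between 1.58 and 2.19 on its own set under each setting.

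Per kb of gene span, Cox6a2 had 98.2% of COX6A in heart and 6.01% in brain, and Cox7a1 82.9% of COX7A in heart. With no length correction Cox7a1 had 67.5% in heart and 3.44% in brain, and Cox8b 87.5% in heart. The highest region over the lowest, with Ndufs7 included, was 3.27 in heart and 4.57 in brain. At a resolution of 0.3 it was 1.78 in heart and 3.67 in brain. At the first resolution it was 3.74 in heart and 1.57 in brain without Ndufs7, and 5.31 in brain outside ribosomal RNA. Ndufs7 reversed to 0.868 with equal spots, and Cox7b2 to 1.08 and 1.20 on the other scalings. Of the other comparisons, each of 1 of 34 named members under 1 of 7 settings, 87 moved beyond the interval and 146 did not. Of the 87, 26 were on the scaling outside ribosomal RNA and 27 outside all structured RNA, which each change every ratio by a common factor. The long Atp5o entry (1.07, with an interval that includes 1) was 0.279 with background subtracted and 0.965 in the deepest class, and Cox6b2 (1.09, likewise) 0.814 with equal spots. The causes were not tested. Depth limits the scarce isoforms and the small regions, and nothing here has a biological replicate.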
